A study of Mus musculus with 8 samples.

Results

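The dystrophin glycoprotein complex is a set of membrane and membrane-associated proteins of the muscle fibre, and 8 of its genes were followed here in the quadriceps femoris (QF), a large thigh muscle of the mouse. The members were chosen by name and are Dmd, Utrn, Sgca, Sgcb, Sgcd, Dag1, Sntb1 and Dtna. All 8 were found among the 14012 genes of the count table, and none was lost to a filter. The data are RNA-seq libraries of 4 mice labelled Grpel1 skm-/- (the knockout group) and 4 mice labelled Grpel1 flox/flox (the control group), with 1 library per mouse. GRPEL1 is the nucleotide exchange factor of the mitochondrial heat shock protein that pulls proteins into the matrix. In the knockout mice a Cre recombinase under the human skeletal actin promoter, active only after tamoxifen, removes the floxed gene in muscle fibres, so that vessel, connective tissue and immune cells of the same muscle still carry an intact gene. Tamoxifen was given from 5 weeks of age for 5 days, and the mice reached their end point within 5 weeks of the induction. The age at sampling was not given for the libraries, the labels list no treatment for either group, and whether the control mice of these libraries received tamoxifen is not stated. An effect of tamoxifen or of carrying Cre therefore cannot be told apart from that of the deletion.

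Dystrophin is a long rod inside the fibre membrane that binds cytoskeletal actin at one end and the membrane protein dystroglycan at the other. Dystroglycan holds laminin outside the fibre, a ring of sarcoglycans steadies it, and dystrobrevin and the syntrophins sit at the tail of dystrophin as docking sites for signalling proteins. Loss of dystrophin causes Duchenne muscular dystrophy, and loss of a sarcoglycan causes a limb-girdle dystrophy. Utrophin, an autosomal relative of dystrophin, is known at the neuromuscular junction of adult fibres and along the whole membrane of fetal and regenerating fibres.

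The libraries held 16017565 to 18813042 counts on these genes in the control group and 16424608 to 20361144 in the knockout group. Levels are given as CPM, the count of a gene relative to the size of its library, after scaling each library for composition with the TMM factors of edgeR, which were 0.75 to 0.84 in control mice and 1.19 to 1.33 in knockout mice. On this scale 3 counts, the most that a count of 0 allows for counting error, correspond to 0.189 to 0.242 CPM in control mice and 0.119 to 0.137 CPM in knockout mice. The count of the targeted gene did not check the labels, since Grpel1 lay at 64.1 to 71.2 CPM in control mice and at 59.9 to 71.9 CPM in knockout mice (log2 fold change -0.066, standard error (SE) 0.078, edgeR adjusted p = 0.49). This count is that of the whole gene, so it does not tell whether a floxed part of the gene was removed. Each direction below therefore rests on the labels. All 15 markers of the myofibre had counts in every library, and their summed level was 281007 to 366467 CPM in control mice and 105679 to 146842 CPM in knockout mice. Of the 15, 12 were lower and 2, Myh1 and Des, were higher. Myh4 alone had a mean of 103899 CPM in control mice and 20582 CPM in knockout mice, a large part of that sum. Markers of immature fibres summed to 39.0 to 53.7 CPM in control mice and to 1058 to 1964 CPM in knockout mice, with 7 of the 8 measured ones higher. In bulk muscle, fewer fibres and less of a transcript per fibre cannot be told apart. A difference was called at an adjusted p under 0.01 in the quasi-likelihood test of edgeR, where p-values were adjusted by Benjamini-Hochberg over all genes.

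Of the 8 members, 2 were higher in the knockout group (Sntb1 and Utrn), 1 was lower (Sgcb), and 5 did not pass the test (Dmd, Dag1, Dtna, Sgca and Sgcd). Over all genes tested 44.7% were called, 23.6% higher and 21.1% lower, so that 3 calls among 8 genes are not more than the whole table gave. The same 3 members were the ones whose groups did not overlap in CPM, beside 53.4% of all genes. The median log2 fold change of the members was -0.0048, against 0.065 over all genes, whose middle 50% ran from -0.40 to 0.54. Sntb1 had a larger fold change than 95.3% of the genes, Utrn than 76.4% and Sgcb than 25.3%. These directions depend on the scaling. With library totals alone 8498 of the 14012 genes tested were called higher and 873 lower, to be read beside each count given below for that setting. All 8 members were then called higher, and the median of all genes moved from 0.065 to 0.73. Set against that shifted median, Sntb1 stood at 1.73, Utrn at 0.51, Sgca at -0.34, Sgcb at -0.46 and the other 4 between -0.11 and -0.029 on the log2 scale.

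**Figure D1:**
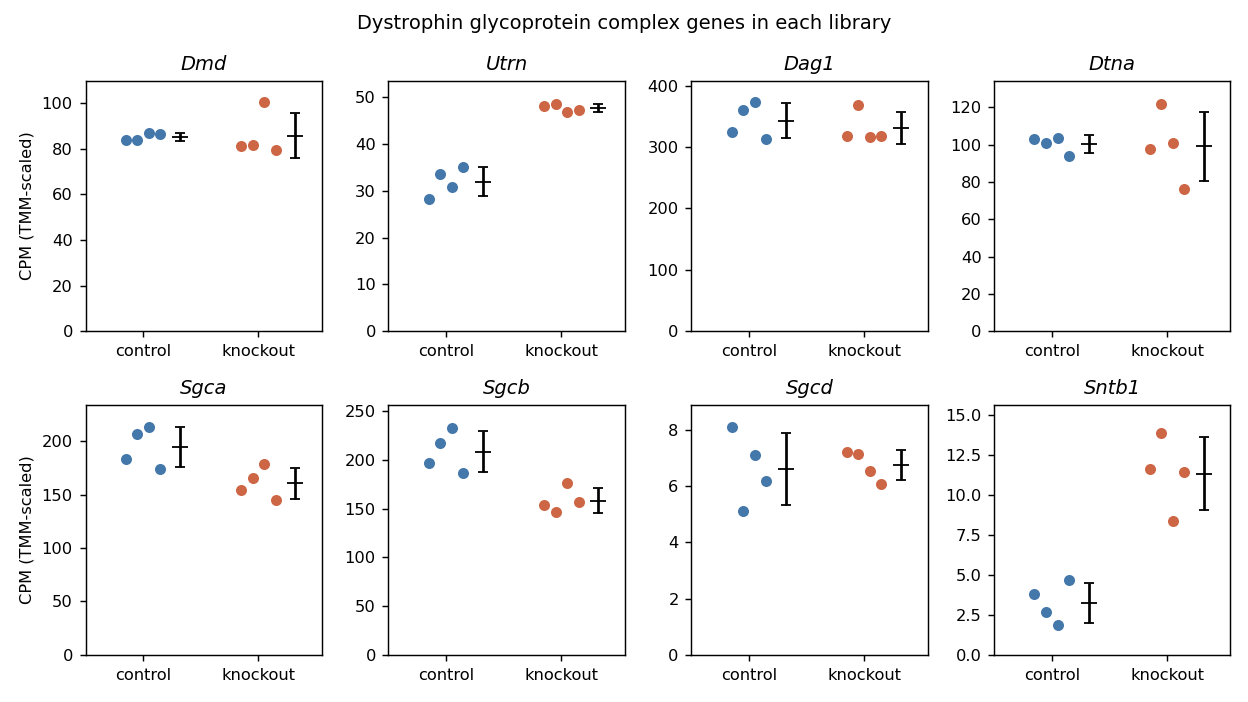
CPM of the 8 members (vertical axes, each from 0) in the 4 control and 4 knockout libraries, 1 point per mouse, with the group mean and SD as a black bar. Sntb1 (at most 4.66 CPM in control mice, at least 8.34 CPM in knockout mice) and Utrn are separated upward and Sgcb downward, while the points of the other 5 genes overlap.

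The first pair of genes codes for the rod of the complex. Dmd (Entrez Gene 13405, GRCm38 chromosome X, 82948870 to 85205050, plus strand) codes for dystrophin. It had 83.9, 83.8, 87.1 and 86.3 CPM in control replicates 1 to 4 and 81.4, 81.6, 100.4 and 79.6 CPM in knockout replicates 1 to 4. Knockout replicate 3 was above all other libraries and the other knockouts were slightly below all controls, so the groups overlapped. The means were 85.3 ± 1.67 and 85.7 ± 9.80 CPM (SD, n = 4 each). The log2 fold change was 0.0073, with a 95% interval of -0.18 to 0.19 (SE 0.082, edgeR adjusted p = 0.95). Without knockout replicate 3 it was -0.11 (edgeR adjusted p = 0.13), and with the RLE scaling it was -0.036. The count is that of the whole gene and cannot tell the full-length transcript from short ones, and the GENCODE annotation lists 3 protein-coding Dmd transcripts with 2 distinct starts.

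Utrn (Entrez Gene 22288, chromosome 10, 12382188 to 12861735, minus strand) codes for utrophin. It had 28.3, 33.5, 30.8 and 35.2 CPM in control mice and 48.2, 48.4, 46.8 and 47.1 CPM in knockout mice. All 4 knockout libraries lay above the highest control, and they lay closer together than the controls did. The mean rose from 31.9 ± 3.03 to 47.6 ± 0.788 CPM, a 1.49-fold difference (log2 fold change 0.57, SE 0.075, 95% interval 0.41 to 0.74, edgeR adjusted p = 1.0e-04). Leaving out any one library kept the fold change between 0.52 and 0.62 and the edgeR adjusted p at or below 8.7e-04. GENCODE lists 8 protein-coding Utrn transcripts with 8 distinct starts, which the gene-level count pools.

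The stretches of 250 bases before the RefSeq start of Dmd and Utrn (build GRCm38.p6) are shown because the paralogs differed in this muscle, and that of Sgcb because it was the member that fell. Capitals mark E-boxes (CANNTG, the site of the MyoD family), which 66.2% of 32851 windows of the same length held, MEF2 sites, which 2.92% held, and CArG boxes (the site of serum response factor), which 1.47% held, each searched on both strands.
Dmd, chrX:82948620-82948869, plus strand: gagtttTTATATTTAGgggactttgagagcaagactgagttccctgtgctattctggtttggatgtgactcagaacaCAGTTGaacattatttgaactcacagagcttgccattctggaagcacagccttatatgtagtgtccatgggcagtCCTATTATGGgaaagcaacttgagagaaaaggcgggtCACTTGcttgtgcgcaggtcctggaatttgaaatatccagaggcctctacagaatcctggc
Utrn, chr10:12861736-12861985, minus strand: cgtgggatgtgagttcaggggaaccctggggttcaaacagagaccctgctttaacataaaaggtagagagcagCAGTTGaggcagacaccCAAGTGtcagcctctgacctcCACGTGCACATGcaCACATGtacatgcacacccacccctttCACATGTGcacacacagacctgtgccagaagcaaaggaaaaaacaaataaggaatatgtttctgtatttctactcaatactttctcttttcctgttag
Sgcb, chr5:73647738-73647987, minus strand: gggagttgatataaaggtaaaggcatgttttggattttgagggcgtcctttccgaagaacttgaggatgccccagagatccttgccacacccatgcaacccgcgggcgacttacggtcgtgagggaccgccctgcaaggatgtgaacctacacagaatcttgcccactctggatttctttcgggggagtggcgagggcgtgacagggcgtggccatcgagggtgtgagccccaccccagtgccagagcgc
The Dmd window held 2 E-boxes, 1 MEF2 site and 1 CArG box. The Utrn window held 7 E-boxes, some overlapping one another, and neither of the other motifs. The Sgcb window held none of them, and that of Sgca 1 E-box. The N-box TTCCGG, the ETS site of synaptic genes, was in 12.0% of all windows, and the element TGATGNAA, bound by ATF4 with CHOP, in 3.45%. The letters of neither were in the 8 windows of the 6 members that had one. Utrn has other starts, so the window shown need not hold the promoter used in this muscle. These matches describe letters in a window, not bound sites. For Sntb1 and Dtna no window was used.

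Within a library the ratio of 2 genes does not depend on the scaling of the library. The log2 ratio of Utrn counts to Dmd counts was -1.42 ± 0.133 in control mice and -0.84 ± 0.173 in knockout mice, a difference of 0.58 with no overlap between the groups. The 2-sided exact permutation test gave p = 0.0286, the smallest that 4 against 4 allows, and 0.0857 after Benjamini-Hochberg adjustment over the 6 ratios compared, which does not pass 0.05. By the deposited FPKM, which is per length, Utrn made up 28, 31.5, 29 and 31.9% of the summed Dmd and Utrn level in control mice and 40.5, 40.6, 35 and 40.6% in knockout mice. The lowest knockout share, that of replicate 3, was above the highest control share, and the means were 30.1 ± 1.94% and 39.2 ± 2.81%.

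**Figure D2:**
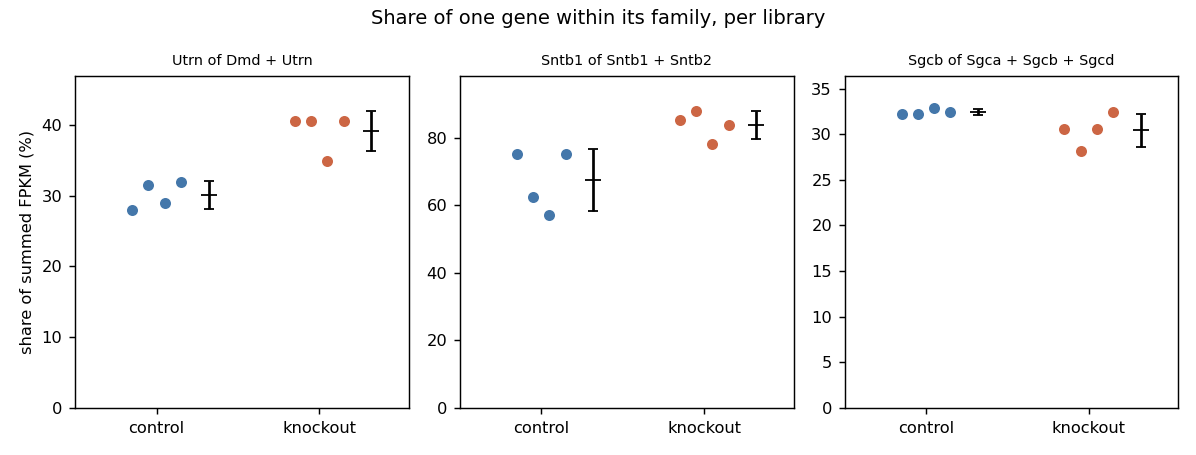
Share of the summed FPKM of a group of related genes (percent, axes from 0) taken by Utrn, Sntb1 and Sgcb in each library, 1 point per mouse, with mean and SD as black bars. Utrn goes from 30.1 to 39.2% of Dmd plus Utrn, Sntb1 from 67.5 to 83.7% of Sntb1 plus Sntb2, and Sgcb, whose groups overlap, from 32.4 to 30.4% of the 3 sarcoglycan members.

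Dag1 (Entrez Gene 13138, chromosome 9, 108204861 to 108263958, minus strand) codes for dystroglycan, which is cut after synthesis into the outer part that binds laminin and the part that spans the membrane. It had 325, 359, 374 and 314 CPM in control mice and 317, 369, 317 and 318 CPM in knockout mice. The groups overlapped, and 1 knockout library, replicate 2, stood above the other 3. Its log2 fold change was -0.054 with a 95% interval of -0.25 to 0.14 (SE 0.086, edgeR adjusted p = 0.61), and -0.12 without that library. The log2 ratio of Dag1 to Dmd differed by -0.054 between the groups (exact permutation p = 0.714, adjusted over the 6 ratios 0.857).

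The sarcoglycans are the transmembrane proteins that form a tight subcomplex beside dystroglycan. Sgcb (Entrez Gene 24051, chromosome 5, 73632749 to 73647731, minus strand), the gene of beta-sarcoglycan, had 197, 217, 233 and 187 CPM in control mice and 154, 146, 177 and 157 CPM in knockout mice. All 4 knockout libraries lay below the lowest control. The mean was 209 ± 20.5 CPM in control mice and 158 ± 12.9 CPM in knockout mice, 0.759 of the control level (log2 fold change -0.40, SE 0.090, 95% interval -0.60 to -0.20, edgeR adjusted p = 0.0036). This call was close to the threshold, since the edgeR adjusted p was 0.013 without control replicate 2, 0.011 without control replicate 3, 0.013 without knockout replicate 1, 0.011 without knockout replicate 2 and 0.012 without knockout replicate 4, at fold changes of -0.49 to -0.34 over all such fits. DESeq2 gave -0.44 with an adjusted p of 6.8e-05.

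Sgca (Entrez Gene 20391, chromosome 11, 94962777 to 94976327, minus strand), the gene of alpha-sarcoglycan, had 183, 207, 213 and 174 CPM in control mice and 154, 165, 179 and 145 CPM in knockout mice. The highest knockout library, replicate 3, was above the lowest control library, so the groups overlapped. The means were 194 ± 18.7 and 161 ± 14.7 CPM, and the log2 fold change of -0.28 (SE 0.092, 95% interval -0.48 to -0.07, edgeR adjusted p = 0.026) was not past the threshold. It was past it with DESeq2 (-0.32, adjusted p = 0.0061) and without knockout replicate 3 (-0.36, edgeR adjusted p = 0.0072). With the replicate number as a block it was past it as well (-0.27, edgeR adjusted p = 0.0067). The span of Sgca overlaps that of Hils1 on the other strand, but their annotated exons share 0 bases and Hils1 had 324 counts in all against 26447 for Sgca.

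Sgcd (Entrez Gene 24052, chromosome 11, 46978783 to 47379302, minus strand), the gene of delta-sarcoglycan, was far lower in counts, with 78 to 100 per control library and 153 to 173 per knockout library. It had 8.08, 5.11, 7.09 and 6.18 CPM in control mice and 7.21, 7.14, 6.52 and 6.08 CPM in knockout mice. All knockout libraries lay within the range of the controls. The log2 fold change was 0.032 with a wide interval, -0.30 to 0.36 (SE 0.15, edgeR adjusted p = 0.87), and its sign turned with the RLE scaling (-0.013). The log2 ratio of Sgcd to Sgca differed by 0.32 (exact permutation p = 0.143, adjusted 0.214) and that of Sgcb to Sgca by -0.12 (exact permutation p = 0.114, adjusted 0.214), and both overlapped between the groups.

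Of the summed FPKM of the 3 sarcoglycan members, Sgcb made up 32.2, 32.2, 32.9 and 32.4% in control mice and 30.5, 28.1, 30.6 and 32.5% in knockout mice. Knockout replicate 4 lay within the control shares and the other 3 below all of them, so the groups overlapped. Sgca went from 64.8 ± 0.686 to 66.1 ± 1.67% and Sgcd from 2.76 ± 0.616 to 3.46 ± 0.356%.

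Dtna (Entrez Gene 13527, chromosome 18, 23310020 to 23659719, plus strand) codes for alpha-dystrobrevin, which binds dystrophin and carries syntrophins of its own. It had 103, 101, 103 and 93.8 CPM in control mice and 97.8, 122, 101 and 76.5 CPM in knockout mice. The knockouts spread to both sides of the controls, with replicate 2 the highest and replicate 4 the lowest. The log2 fold change was -0.017 with a 95% interval of -0.29 to 0.25 (SE 0.12, edgeR adjusted p = 0.92), and it was 0.070 without knockout replicate 4. Its ratio to Dmd differed by -0.036 on the log2 scale (exact permutation p = 0.857, adjusted 0.857). Of the summed FPKM of Dtna and Dtnb (beta-dystrobrevin) it took 90.6 ± 2.56% in control mice and 86.3 ± 2.64% in knockout mice.

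Sntb1 (Entrez Gene 20649, chromosome 15, 55639154 to 55906949, minus strand) codes for beta-1-syntrophin, a PDZ adaptor, and had fewer counts than any other member in each control library. It had 47, 41, 26 and 74 counts in control mice and 279, 303, 202 and 287 in knockout mice, which is 3.80, 2.68, 1.86 and 4.66 CPM against 11.6, 13.9, 8.34 and 11.4 CPM. The lowest knockout library was above the highest control library. The mean rose from 3.25 ± 1.23 to 11.3 ± 2.27 CPM, 3.47-fold (log2 fold change 1.79, SE 0.26, 95% interval 1.22 to 2.37, edgeR adjusted p = 2.0e-04). Leaving out any one library kept it between 1.60 and 2.03 on the log2 scale, with an edgeR adjusted p of at most 0.0012.

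The other beta-syntrophin, beta-2, is coded by the partner gene Sntb2. Per length, Sntb1 made up 75.1, 62.3, 57.2 and 75.3% of the summed FPKM of Sntb1 and Sntb2 in control mice and 85.3, 87.7, 78.2 and 83.8% in knockout mice. Each knockout share was above each control share, and the means were 67.5 ± 9.16% and 83.7 ± 4.06%.

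**Figure D3:**
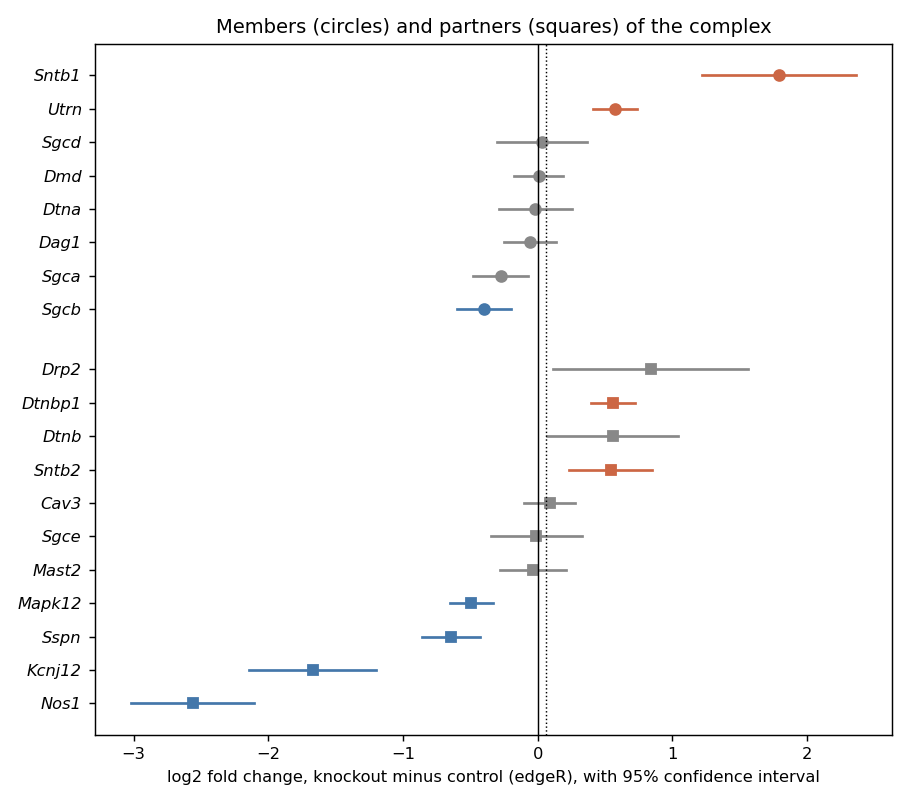
Log2 fold change of knockout minus control (horizontal axis) with its 95% confidence interval for the 8 members (circles) and 11 of the 13 measured partners (squares), orange where called higher, blue where called lower and grey where not called, with a dotted line at the median of all genes (0.065). Sntb1 (1.79) is the highest member, and the partners reach from -2.56 (Nos1) to 0.84.

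Levels of different genes were compared only per length, as deposited FPKM. In the controls the order was Sgca (113 ± 10.7 FPKM), Dag1 (58.1 ± 4.68), Sgcb (56.5 ± 5.44), Dtna (13.7 ± 0.632), Dmd (6.04 ± 0.0949), Sgcd (4.77 ± 0.919), Utrn (2.61 ± 0.245) and Sntb1 (1.53 ± 0.578). Among neighbours in that order only Dag1 and Sgcb overlapped between their libraries. In the knockouts the order was Sgca (90.6 ± 9.63 FPKM), Dag1 (54.3 ± 4.01), Sgcb (41.6 ± 4.14), Dtna (13.1 ± 2.45), Dmd (5.89 ± 0.784), Sntb1 (5.14 ± 0.970), Sgcd (4.72 ± 0.347) and Utrn (3.77 ± 0.0415). Here Dag1 and Sgcb no longer overlapped, while Sntb1 overlapped both Dmd above it and Sgcd below it. CPM per kilobase of exon gave the same order in both groups.

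**Figure D4:**
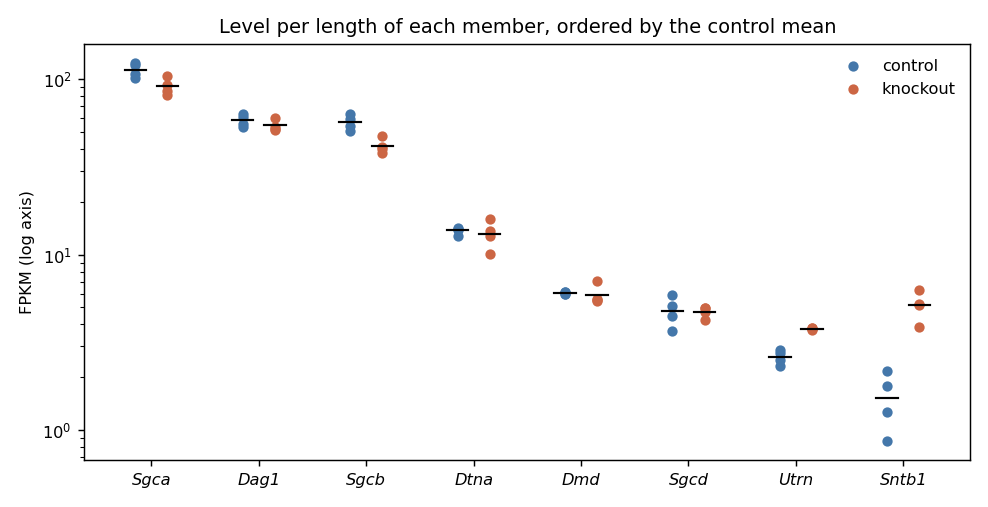
FPKM of each member (vertical log axis) in the control and knockout libraries, 1 point per mouse, with the group mean as a black line and genes ordered by the control mean. Sgca is highest in both groups (113 and 90.6 FPKM), and Sntb1 moves from the lowest place (1.53 FPKM) to 5.14 FPKM.

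The genes closest to 3 members in their pattern over the 8 libraries were sought among 9789 genes with at least 5 CPM on average, by the root mean square difference of log2 CPM after setting each gene to its control mean. For Dmd these were Cap2 (0.042), Pcgf5 (0.044) and Dhx57 (0.047), where the median of all genes was 0.36. For Utrn they were Ctnna1 (0.052), Pdia3 (0.055) and Acap2 (0.061), against a median of 0.51. For Sgca they were Ubap2 (0.048), Ubr2 (0.055) and Stim1 (0.057), against 0.40. The 8 points of each pattern share their libraries and scaling. The closest 3 of 9789 genes lie below the median by selection, so the medians only give the scale of these distances.

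Other subunits and binding partners of the complex were measured for 13 of 16 listed genes, of which 2 rose, 4 fell and 7 did not pass, with a median log2 fold change of -0.036. This count and those of the lists and markers below are to be read beside all genes, of which 23.6% were called higher and 21.1% lower. The partners that fell included signalling and channel proteins known to dock on syntrophin. Nos1, the neuronal nitric oxide synthase, had 192, 161, 163 and 278 CPM in control mice and 39.7, 38.2, 31.5 and 25.2 CPM in knockout mice. All knockout libraries were far below the controls (log2 fold change -2.56, SE 0.21, edgeR adjusted p = 4.4e-06), also with library totals alone (-1.90). Kcnj12, an inward rectifier potassium channel, fell from 125 ± 30.6 to 39.4 ± 9.10 CPM (log2 fold change -1.67, edgeR adjusted p = 8.8e-05). Sspn, the gene of the small membrane protein sarcospan that binds the sarcoglycans, fell from 150 ± 18.6 to 96.3 ± 6.45 CPM (log2 fold change -0.64, edgeR adjusted p = 2.9e-04), but stood at 0.027 with library totals alone. The other called decrease was that of Mapk12, a stress kinase.

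Of the partners that rose, Dtnbp1, the gene of dysbindin, which binds dystrobrevin, went from 28.8 ± 1.69 to 42.4 ± 2.97 CPM (log2 fold change 0.56, edgeR adjusted p = 1.1e-04). Sntb2, the gene of beta-2-syntrophin, went from 2.98 ± 0.330 to 4.36 ± 0.369 CPM (log2 fold change 0.54, edgeR adjusted p = 0.0073). That call was lost without any one of the 8 libraries, at an edgeR adjusted p of up to 0.031, and with DESeq2 (adjusted p = 0.020). Dtnb (0.56, edgeR adjusted p = 0.050), Sgce, the epsilon-sarcoglycan of many tissues (-0.011, edgeR adjusted p = 0.96), and Cav3, the caveolin of muscle that binds dystroglycan (0.090, edgeR adjusted p = 0.38), did not pass. With library totals alone 8 partners were called higher and 2 lower.

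The sugar chain by which dystroglycan binds laminin is built by a set of enzymes, of which all 18 listed were measured. Of these 3 rose, 7 fell and 8 did not pass (median log2 fold change -0.16), and with library totals alone 10 were called higher and 2 lower. Pomgnt2, which adds the second sugar of the core, fell from 18.9 ± 2.5 to 7.11 ± 0.330 CPM (log2 fold change -1.41, edgeR adjusted p = 3.2e-06). B3galnt2, a transferase of the core, fell from 166 ± 18.3 to 92.3 ± 6.88 CPM (-0.85, edgeR adjusted p = 3.4e-05). Among the genes that rose, Ispd, which makes the ribitol donor, went from 2.99 ± 0.891 to 6.32 ± 1.59 CPM (1.07, edgeR adjusted p = 0.0042), a call lost when control 1, knockout 3 or knockout 4 was left out (edgeR adjusted p up to 0.019). Gmppa (0.61, edgeR adjusted p = 2.8e-04), which belongs to the making of GDP-mannose, and Dpm2 (0.61, edgeR adjusted p = 0.0020), a subunit of the dolichol mannose synthase, were the other ones.

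Outside the fibre, 9 of 18 ligands and basal lamina genes fell, none rose and 9 did not pass (median log2 fold change -0.60). At an unadjusted p under 0.05 by edgeR 1 gene was higher, and DESeq2 called 0 higher and 11 lower. With library totals alone 5 were called higher and 0 lower. Col4a1 and Col4a2, the main collagen chains of basement membranes, fell from 425 ± 122 to 176 ± 4.90 CPM (-1.27, edgeR adjusted p = 2.2e-04) and from 290 ± 81.6 to 136 ± 6.59 CPM (-1.09, edgeR adjusted p = 5.1e-04). Col15a1, a collagen at the outer face of the basement membrane, fell from 78.0 ± 29.3 to 31.5 ± 5.53 CPM (-1.31, edgeR adjusted p = 0.0015). Lama2, the laminin chain that dystroglycan binds in muscle, was among the 9, as were Hspg2, Nid1, Col6a1, Col6a2 and Col6a3. The calls of the last 3 were close to the threshold, and were lost without any of 6 (Col6a1 and Col6a3) or 4 (Col6a2) of the 8 libraries, at an edgeR adjusted p of up to 0.026. These genes are made in part by other cells of the muscle, and some markers of those cells were lower too. The 8 fibroblast markers summed to 1750.1 to 2618 CPM in control mice and 705 to 1075 CPM in knockout mice, with 5 lower. Those 5 were Dcn, Dpt and the collagen genes Col1a1, Col1a2 and Col3a1. The other 3 did not pass, and 1 fibroblast marker was higher at an unadjusted p under 0.05 by edgeR. The 9 endothelial markers summed to 385 to 553 CPM in control mice and 288 to 320 CPM in knockout mice, with 7 lower. With library totals alone 2 fibroblast markers were called higher and 1 lower, and 0 endothelial markers in either direction. None of these markers was at 0 in any library, and their part in the decrease of the ligands was not tested.

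The costamere, a link of fibre membrane and contractile lattice, and its integrin were measured for 22 of 23 genes. Of these 8 rose, 7 fell and 7 did not pass (median log2 fold change 0.072), beside 23.6% higher and 21.1% lower over all genes. With library totals alone 14 of the 22 were called higher and 3 lower. Flnc, the muscle filamin that binds sarcoglycans, rose from 1066 ± 177 to 3140.3 ± 463 CPM (1.56, edgeR adjusted p = 1.5e-05). Itga7, the alpha chain of the laminin-binding integrin of muscle, was among the 8 that rose. Synm, the gene of synemin, which links desmin to dystrophin, fell from 1530.1 ± 139 to 343 ± 61.6 CPM (-2.16, edgeR adjusted p = 1.0e-06). Ldb3, a Z-disc protein, fell by 1.46 on the log2 scale (edgeR adjusted p = 3.2e-06), and Plec, the cytolinker plectin, which also binds dystrophin, fell from 1444 ± 75.4 to 695 ± 59.4 CPM (edgeR adjusted p = 6.3e-06). The keratins Krt8 and Krt18 were near 0 in control mice, at 3, 0, 0 and 1 counts and at 3, 3, 1 and 1 counts. In the knockouts they had 37, 38, 65 and 44 counts and 44, 31, 80 and 53 counts.

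Of 18 genes of membrane repair and caveolae, 2 rose, 5 fell and 11 did not pass (median log2 fold change -0.10), and 10 were called higher and 1 lower with library totals alone. Anxa4, an annexin that binds membranes with calcium, rose from 13.7 ± 0.438 to 68.6 ± 1.89 CPM (2.32, edgeR adjusted p = 2.0e-08), and Trim72, the repair protein also called MG53, from 293 ± 35.6 to 402 ± 8.50 CPM (0.46, edgeR adjusted p = 0.0018). Capn3, the muscle calpain, fell from 212 ± 13.3 to 67.8 ± 5.63 CPM (-1.64, edgeR adjusted p = 3.0e-07), and Bin1, which shapes T tubules, from 990.2 ± 123 to 672 ± 21.2 CPM (-0.56, edgeR adjusted p = 7.6e-04). Sdpr, a caveolar protein, fell by 0.61 on the log2 scale (edgeR adjusted p = 0.0071), a call lost when control 2 or 4 or knockout 2, 3 or 4 was left out (edgeR adjusted p up to 0.022). The calls of Anxa6 and Capn1 were lost in the same way, each without at least 6 of the 8 libraries in turn.

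Of 13 neuromuscular junction genes, 9 rose, none fell and 4 did not pass (median log2 fold change 1.61). For the decreases, 0 genes had an unadjusted p under 0.05 in the edgeR fit and DESeq2 called 0, and with library totals alone 11 genes were higher. Chrng, the fetal subunit of the acetylcholine receptor, had 1, 5, 3 and 0 counts in control mice and 545, 692, 582 and 1098 counts in knockout mice. Chrnd, another subunit of the receptor, rose from 2.54 ± 1.32 to 39.0 ± 1.67 CPM (3.94, edgeR adjusted p = 2.4e-06). Ncam1, the neural cell adhesion molecule, rose from 10.6 ± 4.12 to 107 ± 19.6 CPM (3.34, edgeR adjusted p = 6.1e-06). The summed level of the list was 267, 288, 282 and 149 CPM in control mice and 650.4 to 749 CPM in knockout mice. Control replicate 4 stood apart from the other controls, with 52 counts of Chrne, the adult receptor subunit, against 294 to 422, and 21 counts of Colq, the collagen tail of acetylcholinesterase, against 146 to 237 (both chosen after their values were seen). Without it 9 genes of the list were called higher, though not the same 9, and 1, Ache, the acetylcholinesterase, was called lower (-0.57, edgeR adjusted p = 0.0028). In that fit Utrn stood at 0.62 and Sntb1 at 2.03 on the log2 scale. Control replicate 4, the lowest control in the junction sum, was the highest control in Utrn (35.2 CPM) and in Sntb1 (4.66 CPM). The junction gene Lrp4, called higher with all libraries, lost its call without any one of the 8 libraries (edgeR adjusted p up to 0.042). It also lost it with DESeq2 (adjusted p = 0.016). Utrn and Sntb1 were called higher in the same comparison as most junction genes and most markers of immature fibres given above. So were 23.6% of all genes, so that rising together does not link the members to either list. Chrng and Ncam1 are in both of those lists. The part of either list in the rise of Utrn and Sntb1 was not tested.

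**Figure D5:**
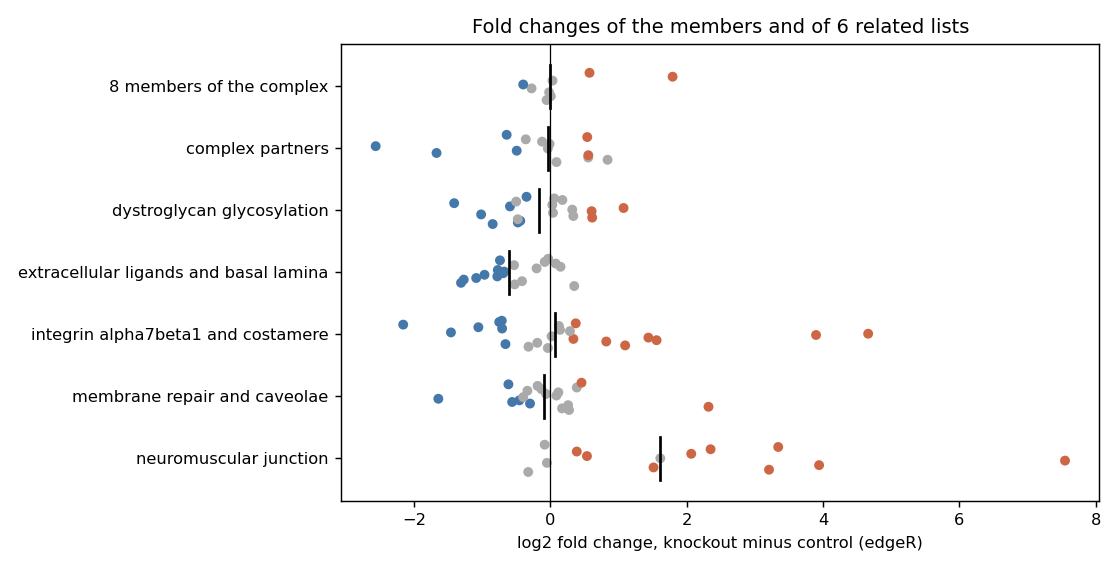
Log2 fold change of knockout minus control (horizontal axis) of each gene of the 8 members and of the 6 related lists, 1 point per gene, orange where called higher, blue where called lower and grey where not called, with a black line at the median of each list. The medians run from -0.60 for the extracellular ligands to 1.61 for the neuromuscular junction, with that of the 8 members at -0.0048.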

How the data were processed

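RNA of QF muscle from 4 knockout and 4 control mice was analysed. Per the labels and the methods of the study, the authors made strand-specific libraries from polyadenylated RNA, demultiplexed with bcl2fastq 2.20.0.422, trimmed with cutadapt, mapped read pairs to GRCm38 with STAR 2.5.4b and counted them on exons with Rsubread 2.6.4. Duplicate, chimeric and multimapping reads and those with a mapping quality under 10 were left out, as were genes with fewer than 50 reads in all. The annotation release and the use of strand in counting are not given in the sources used here. The deposited table holds the authors' raw counts per gene and the FPKM values they made from them and from the exon width. It also holds their fold changes, mean values, p-values and adjusted p-values from DESeq2 1.32.0, which were not used.

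All 14012 genes were tested on the deposited counts with edgeR 4.0.16 in R 4.3.3 (glmQLFit and glmQLFTest, TMM scaling, group as the only term, Benjamini-Hochberg adjustment, threshold 0.01). The SE is the log2 fold change divided by the square root of F. CPM uses TMM-scaled library sizes. Ratios were taken per library as log2 of counts plus 0.5 and compared by the exact 2-sided permutation test, with 70 ways to assign 4 of 8 libraries. Library pairs of a group differed by a chi-square of at least 18.1 per degree of freedom, far above sampling noise. Intervals and floors cover counting error or the spread between these mice only.

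The members and all lists (6 of related genes, 9 of cell type markers) were chosen with earlier results of these data known. Named were the members, from each related list the genes past the threshold with the 3 largest rises and falls and a mean of at least 1 CPM, and the direct partners and target Sgce, Sspn, Sntb2, Dtnb, Nos1, Cav3 and Grpel1. Some genes and 1 of the 6 ratios that these rules take in are not reported here, though they stay in the counts and adjustments. Other list genes were chosen after their values were seen. Promoter windows came from RefSeq (GRCm38.p6) and transcripts from GENCODE M21.

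Alternatives were RLE, upper-quartile and no scaling factors, leaving out the 20 most abundant genes, filterByExpr, DESeq2 1.42.0, the replicate number as a block, the adipocyte markers as a covariate, a threshold of 0.05, FPKM or log2 CPM for the ratios, and each library left out in turn. On simulated data with 13266 genes and 200 changed, edgeR recovered 98% of changes of 2 and 72% of changes of 1 on the log2 scale, with 1 unchanged gene called. DESeq2 recovered 100% and 85% of them, with 13 unchanged genes called. The scaling was not tested with as many changed genes as the 6265 called in the mice.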

Additional observations from a re-analysis of the deposited data

Results flagged for a closer look

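Of 96 groups of 4 libraries examined (42 genes and 6 ratios, each in both groups), 5 had a library whose gap to the nearest other was above Dixon's 95% limit as a share of the group's range, where chance gives about 1 in 20. All 5 were in the knockout group. Dmd was at 100.4 CPM in knockout replicate 3 and at 79.6 to 81.6 CPM in the other knockouts. In the same library the log2 ratio of Utrn to Dmd was -1.10, against -0.76 to -0.75 in the others. Dag1 was at 369 CPM in knockout replicate 2 and at 317 to 318 CPM in the other 3. Ncam1 was at 136 CPM in the same library and at 93.3 to 99.8 CPM in the others. Cav3 was at 68.8 CPM in knockout replicate 4 and at 56.9 to 58.9 CPM in the others.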

How the results depend on the processing

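Utrn and Sntb1 were called higher under every alternative run, at log2 fold changes of 0.52 to 1.24 and 1.56 to 2.46. With library totals alone, 8498 genes were called higher and 873 lower, the members gave 8 higher and 0 lower, and the lists gave 8 and 2 (complex partners), 10 and 2 (glycosylation), 5 and 0 (ligands), 14 and 3 (costamere) and 10 and 1 (repair). Sgca then stood at 0.39, Sgcb at 0.27, Dag1 at 0.62 and Dtna at 0.66. The cause of the shift was not tested. Calls of members as lower were 2 with DESeq2, with the replicate block and at the threshold of 0.05, and 0 to 2 with each library left out. Partners called higher were 1 with RLE, DESeq2, the block, the adipocyte covariate and without the 20 most abundant genes, 3 at the threshold of 0.05, and 1 to 2 with each library left out. Ligands called higher were 1 at the threshold of 0.05. Repair genes called lower were 3 with upper-quartile scaling and the adipocyte covariate, and 2 to 4 with each library left out. Junction genes called lower were 0 to 1 with each library left out, the 1 (Ache) without control replicate 4. Signs near 0 turned for Dmd (-0.036 with RLE and DESeq2, -0.012 without abundant genes, -0.11 to 0.026 with each library left out), Sgcd (-0.013 with RLE, -0.012 with DESeq2, -0.075 to 0.14 with each library left out) and Dtna (0.016 with upper-quartile scaling, 0.0050 with the adipocyte covariate, -0.14 to 0.070 with each library left out).

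Deviations of same-numbered replicates correlated at 0.17, 0.015, 0.49 and 0.16 over 12464 genes. Control replicates 1, 3 and 4 correlated best with the knockout of the same number, but control replicate 2 with knockout replicate 1. The numbers were therefore not taken to pair the mice. With the replicate block edgeR called 6123 genes against 6265 without it. Sgca (-0.27, adjusted p = 0.0067) passed with the block, and the pairwise permutation of the ratios cannot go below 0.125. The intervals of Sgcd, with 78 to 173 counts per library, and Sntb1, with 26 to 303, rest on the fewest counts among the members.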

Other observations

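Markers of other cells of the muscle were measured beside those given with the basal lamina genes. Of the 6 satellite cell markers 3 were higher (Myf5, Cdh15 and Vcam1) and 2 lower (Chodl and Calcr), with a summed level of 44.9 to 55.7 CPM in control mice and 50.9 to 70.4 CPM in knockout mice. Of the 7 markers of smooth muscle and pericytes 4 were lower, with a sum of 435 to 695 CPM against 409 to 464 CPM. Of the 9 macrophage markers 1, Cd68, was higher, while 5 were higher at an unadjusted p under 0.05 in edgeR and 4 by DESeq2, and their sum was 86.6 to 226 CPM in the controls against 181 to 339 CPM. Among the 8 adipocyte markers edgeR and DESeq2 called 0, with 1 higher at an unadjusted p under 0.05, and the summed level ranged from 249 to 1502 CPM in control mice and from 712 to 2600.1 CPM in knockout mice. Among the 7 markers of Schwann cells and nerve edgeR and DESeq2 also called 0, with 1 higher at an unadjusted p under 0.05 and a sum of 75.9 to 196 CPM against 102 to 161 CPM.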
